A study of Rattus norvegicus with 6 samples.

Results

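The genes described here are 10 genes of cartilage, taken by name from the arrays: the matrix genes Acan, Hapln1, Matn1, Matn3, Comp, Cilp, Chad and Cnmd (Lect1 in the files), and the transcription factor genes Sox9 and Sox5. They are 10 of 17168 genes with a symbol on the array, and 13 of its 41012 probes that are not controls. The file's own gene names gave 8 of the genes, with 10 probes. Sox5, which the files call Sox5l1, was matched by transcript accession and Matn3, which the files list by an accession only, by gene ID. They were measured in synovial tissue, the soft lining of the joint, from the hind-leg ankles of male rats aged 8 weeks. Every rat had adjuvant arthritis, a joint inflammation raised here with 0.1 ml of Freund's complete adjuvant given into the peritoneum each day for 18 days. The 3 arrays called arthritis below came from rats given saline for 14 days, and the 3 called triptolide from rats given 0.4 mg/kg of triptolide, a diterpenoid of the thunder god vine that blocks transcription, each day for as long. No healthy tissue was analysed here. The labels number the samples but name no animals; the spread behind each p-value is that between these samples and may be technical.

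Cartilage is a tissue of few cells in much matrix, in which aggrecan, a very large proteoglycan, is bound to hyaluronan by link protein and held within a network of type II collagen fibrils. Matrilins, chondroadherin and cartilage oligomeric matrix protein join these parts to each other and to the cell. Sox9 is the transcription factor that sets up the chondrocyte, the cell of cartilage, and acts with Sox5 and Sox6 on the genes of the matrix. Synovium covers the joint beside cartilage and is not itself cartilage. In inflammatory arthritis its inflamed tissue can grow over the cartilage and erode it.

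The data hold no difference between triptolide and arthritis in these genes that passed the test. Aggrecan, link protein and matrilin 3, best known as products of chondrocytes, were not well above background on any of the 6 arrays. Comp and Cilp were well above background on all 6 arrays with little spread. Between single arrays well above background, Cnmd varied 118-fold, Chad 32.3-fold and Matn1 3.82-fold, and the groups of each overlapped. Sox9 and Sox5 were detected on all 6 arrays by their brighter probes and also varied more between arrays than most genes.

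The probes are single strands of 60 bases. Those of 4 genes are shown because the results turn on what they report: Acan and Hapln1 stand for the matrix genes that gave no signal well above background, Comp for one measured steadily, and the second Sox5 probe for a gene whose probes lie far apart. They are printed in lower case as deposited, 5′ to 3′, with no base marked.
Acan probe: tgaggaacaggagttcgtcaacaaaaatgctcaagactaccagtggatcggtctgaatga
Hapln1 probe: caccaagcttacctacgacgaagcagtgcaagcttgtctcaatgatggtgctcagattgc
Comp probe: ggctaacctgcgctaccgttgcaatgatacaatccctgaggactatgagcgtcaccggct
Sox5 second probe: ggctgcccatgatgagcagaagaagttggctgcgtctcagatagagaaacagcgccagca
On build rn4, per the files, the Acan probe spans 569 bases of chromosome 1 (134846027 to 134846595, plus strand), more than its own length, so other genomic sequence lies between its ends. The Hapln1 probe lies on chromosome 2 (19636823 to 19636882, plus strand). The brighter Cilp probe lies on chromosome 8 (69516933 to 69516992, plus strand). The Sox5 probe shown lies on chromosome 4 (181648572 to 181648631, minus strand), and the other Sox5 probe at 180399243 to 180399302. The files place the Comp probe at no genomic position. Exon and UTR annotation was not used here.

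Levels below are log2 of the processed spot intensity minus the log2 of the array's own 75th percentile over its spots that are not controls, so 0 is that percentile. Levels of different probes depend on the probe and are not set against each other. Of the 43379 spots that are not controls, 59.6% to 65.1% were well above background per array, and no spot was saturated. Arthritis 2 stood apart from the other arrays in muscle markers and triptolide 2 in nerve markers. The summed level of 12 skeletal muscle markers (levels on a linear scale, in multiples of the 75th percentile) was 5842 on arthritis 2. On arthritis 1 and 3 it was 5.29 and 5.23, and on triptolide 1 to 3 it was 108, 4.11 and 90.4. Triptolide 1 and 3 thus held more muscle signal than arthritis 1 and 3. The 6 nerve and Schwann cell markers summed to 256 on triptolide 2 and to between 56.1 and 93.1 on the other 5 arrays. All 11 synovial fibroblast markers were above background, with sums of 426 to 709 on the arthritis arrays and 412 to 538 on the triptolide arrays, and so were all 8 macrophage markers. Of the 11 chondrocyte markers 3 (Acan, Hapln1 and Matn3) were above background on no array, and the sum of that list was 3.51 to 7.79 with arthritis and 2.44 to 17.6 with triptolide. That list includes Acan, Hapln1, Matn1, Matn3, Cnmd and Sox9, so its sum is not independent of the genes described here. The 17.6 on triptolide 2 came mainly from Cnmd, at a level of 3.49, and the 7.79 on arthritis 2 from Col11a2, at 2.33. Among bone markers Ibsp, Sp7 and Phex were above background on no array. In such bulk tissue fewer cells of a type and less RNA per cell cannot be told apart.

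**Figure D1:**
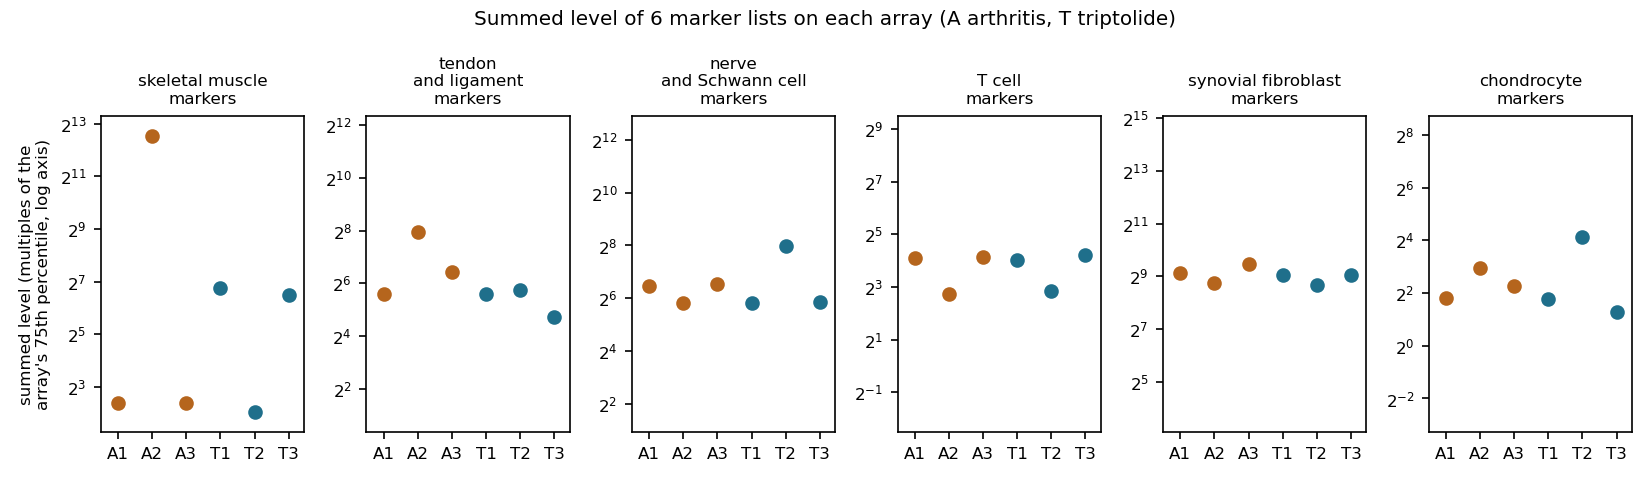
Summed level of 6 marker lists on each array, in multiples of the array's 75th percentile of intensity, on a log axis with the same span in each panel; brown points are the 3 arthritis arrays (A1 to A3) and blue points the 3 triptolide arrays (T1 to T3). Arthritis 2 is far above the other arrays in muscle markers, at 5842, and triptolide 2 is the highest in nerve markers, at 256, while the synovial fibroblast sums lie between 412 and 709. The chondrocyte list includes genes described here, Cnmd among them.

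Of the 13 probes, 9 (of 7 genes) reached a signal well above background on 3 or more arrays. These were tested with limma over the 6 arrays in 1 fit with every other such probe, 25777 in all. At a Benjamini-Hochberg adjusted p under 0.05 limma called none of the 9, and none of the 25777 (0%). At an unadjusted p under 0.05 it called none of the 9, against 835 of all tested probes (3.24%). One of the 9 had groups that did not overlap, against 2226 of all tested probes (8.64%). With 1 probe per gene, 4 of the 7 tested genes were higher with triptolide and 3 lower, and their median log2 difference (triptolide minus arthritis) was 0.03, beside 0.03 over all 12168 tested genes. Without arthritis 2 and triptolide 2 together, an alternative chosen after the values were seen, limma put 4 of the 9 probes at an unadjusted p under 0.05 and none at an adjusted p under 0.05. In that setting 11.2% of all tested probes had an unadjusted p under 0.05. The muscle marker sums there were 5.29 and 5.23 on arthritis 1 and 3, and 108 and 90.4 on triptolide 1 and 3. Muscle RNA and treatment cannot be told apart on those 4 arrays.

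**Figure D2:**
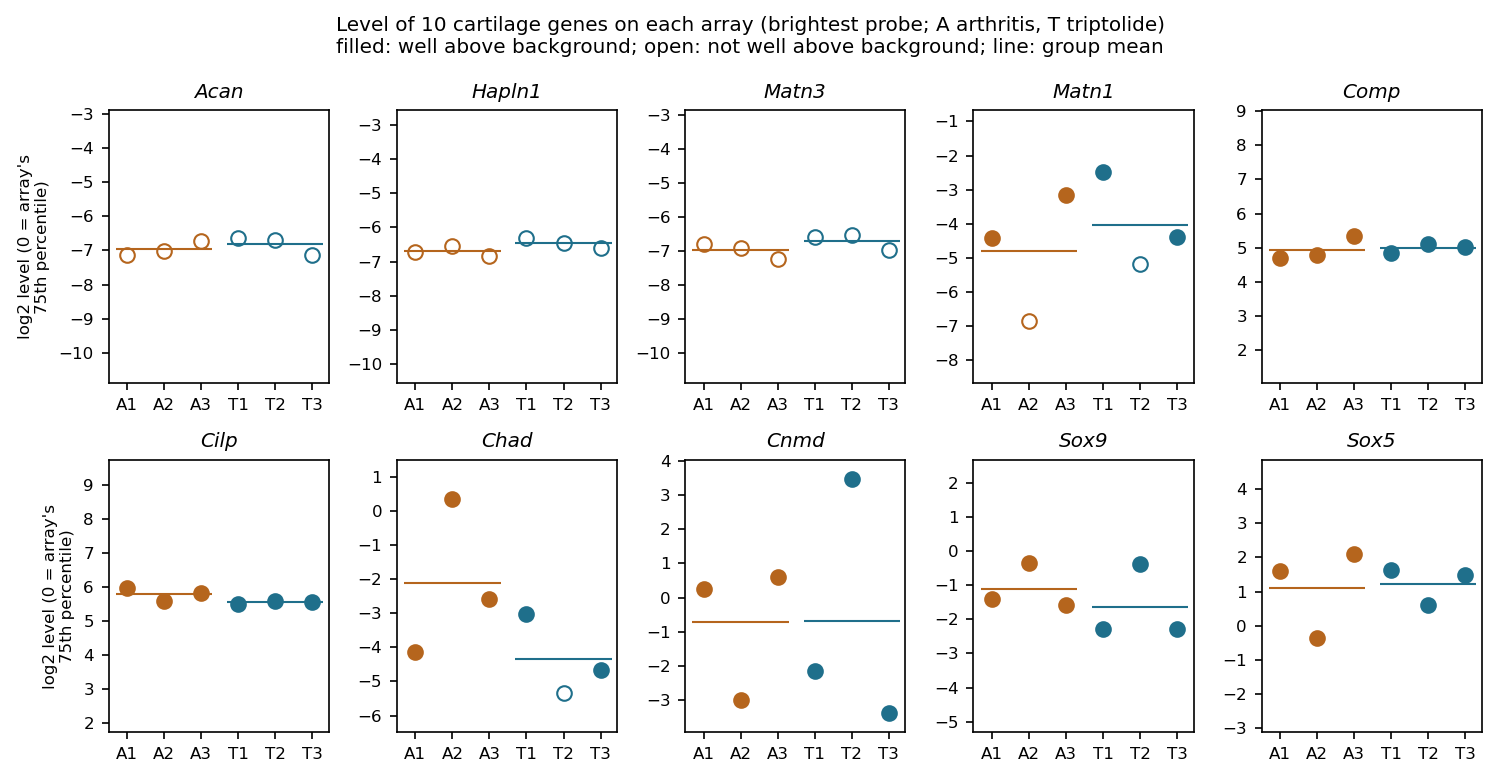
Log2 level of each gene's brightest probe on each array, where 0 is the array's 75th percentile; each panel spans 8 log2 units, placed around its own gene. Brown points are arthritis arrays (A1 to A3), blue points triptolide arrays (T1 to T3), open points were not well above background, and lines are group means (n = 3). The points of Acan, Hapln1 and Matn3 are open on all 6 arrays, those of Comp and Cilp lie within 0.65 of each other, and those of Cnmd lie as far apart as 6.88.

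Acan encodes aggrecan, the proteoglycan that lets cartilage resist compression. Its single probe read −7.15, −7.02 and −6.72 on arthritis 1 to 3 and −6.63, −6.68 and −7.13 on triptolide 1 to 3. These levels correspond to intensities of 1.99 to 3.33, whereas the dimmest probe counted as well above background on any array read 9.88. The groups overlapped, and no fold was taken because neither group had a measured level.

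Hapln1 encodes link protein, which fixes aggrecan to hyaluronan. It read −6.72, −6.54 and −6.83 with arthritis and −6.30, −6.45 and −6.61 with triptolide, on no array well above background. The arrays ran together over 0.53 log2 units. Matn3 encodes a matrilin of growing cartilage, and its probe on chromosome 6 (32447210 to 32447269, plus strand) read −6.80, −6.91 and −7.22 with arthritis and −6.60, −6.52 and −6.96 with triptolide. It too was not well above background on any array. A level under the background limit bounds the signal of these probes and does not show that the transcript was absent.

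Comp encodes cartilage oligomeric matrix protein, a thrombospondin of cartilage, tendon and synovium that binds collagens. Its level was 4.70, 4.78 and 5.35 on arthritis 1 to 3 and 4.84, 5.11 and 5.01 on triptolide 1 to 3. Arthritis 3 was the highest array and arthritis 1 the lowest, so the triptolide arrays lay inside the range of the arthritis arrays. Means were 4.94 ± 0.35 (SD, n = 3) with arthritis and 4.99 ± 0.13 (SD, n = 3) with triptolide. The log2 difference was 0.04 (SE 0.22), with a 95% interval of −0.49 to 0.57 and an adjusted p of 0.995 by limma. Its SD over the 6 arrays, 0.24, was at the 39.2nd percentile of all tested probes, whose median SD was 0.28.

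Cilp encodes cartilage intermediate layer protein, a matrix protein of the middle zone of cartilage and of other connective tissue. Its brighter probe read 5.96, 5.60 and 5.84 with arthritis and 5.50, 5.60 and 5.57 with triptolide. Arthritis 1 and 3 were above the triptolide arrays, and arthritis 2 lay among them. The log2 difference was −0.24 (SE 0.16), with a 95% interval of −0.62 to 0.14 and an adjusted p of 0.994 by limma.

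The second Cilp probe read 1.08, 0.68 and 0.87 with arthritis and 0.39, 0.60 and 0.54 with triptolide. Every triptolide array was below every arthritis array, as for 997 of the 25777 tested probes (3.87%), and the gap between arthritis 2 and triptolide 2 was 0.08. Means were 0.88 ± 0.20 (SD, n = 3) and 0.51 ± 0.11 (SD, n = 3), and the log2 difference was −0.37 (SE 0.17), with a 95% interval of −0.77 to 0.03 and an adjusted p of 0.994 by limma. Both Cilp probes were lower with triptolide on average under each of the 18 alternatives tried, some of which cannot change a log2 difference. The brighter was lower by 0.16 to 0.36 log2 units and the second by 0.27 to 0.51. Neither passed the adjusted threshold under any of them, with adjusted p values of at least 0.184 and 0.162.

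**Figure D3:**
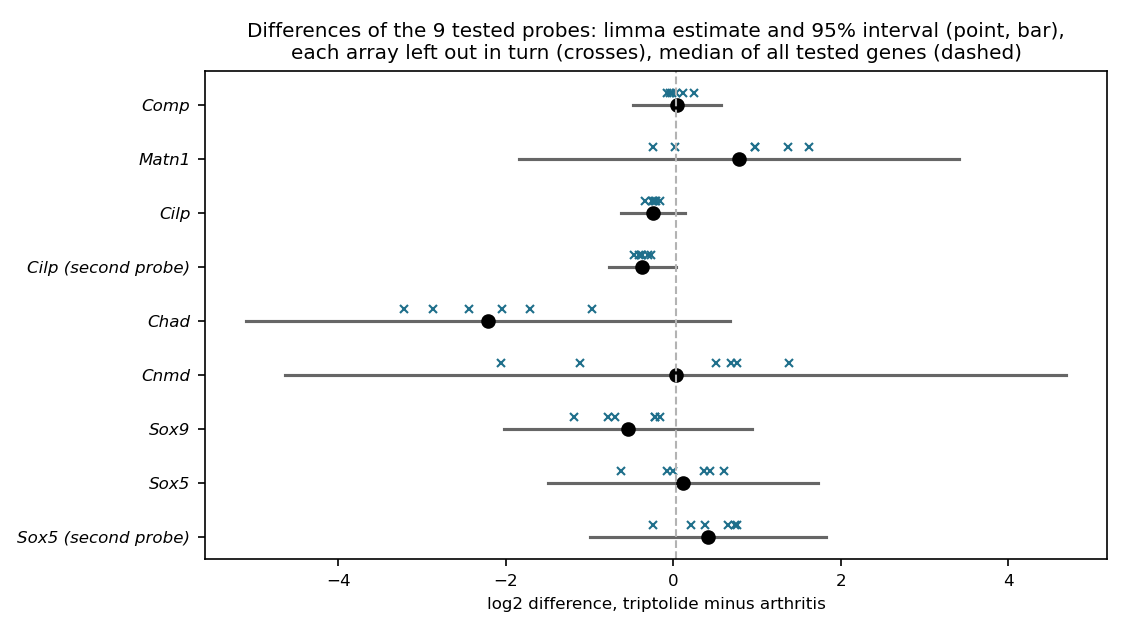
Log2 difference (triptolide minus arthritis) of the 9 tested probes from limma, as a point with its 95% interval (n = 3 per group), with crosses for the value when each array in turn was left out and a dashed line at the median of all tested genes, 0.03. Every interval includes 0; that of Comp runs from −0.49 to 0.57 and that of Cnmd from −4.64 to 4.69.

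Matn1 encodes matrilin 1, a protein that bridges collagen fibrils and proteoglycans in cartilage. Its probe, on chromosome 5 (149815246 to 149815305, plus strand), was well above background on 2 of 3 arrays in each group. It read −4.42, −6.86 and −3.15 with arthritis and −2.49, −5.19 and −4.40 with triptolide. Triptolide 1 was the highest array, and arthritis 2 and triptolide 2 were not well above background, so their levels are only bounds. Against the background limit of arthritis 2, triptolide 1 was at least 4.71-fold higher. The fit takes both dim arrays at their measured values. The log2 difference of 0.78 (SE 1.09) had a 95% interval of −1.84 to 3.41 and an adjusted p of 0.994 by limma. Without arthritis 2 it was −0.24, without triptolide 1 it was 0.01, and without arthritis 3 it was 1.61, so single arrays set its sign and size.

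Chad encodes chondroadherin, a leucine-rich protein that links the chondrocyte to collagen. Its probe, on chromosome 10 (83205500 to 83205560, plus strand), read −4.15, 0.35 and −2.58 with arthritis and −3.01, −5.34 and −4.66 with triptolide. Arthritis 2 was 2.93 log2 units above the next array, triptolide 2 was not well above background, and the groups overlapped through arthritis 1. Means were −2.13 ± 2.28 (SD, n = 3) and −4.34 ± 1.20 (SD, n = 3).

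The log2 difference of Chad was −2.21 (SE 1.19), with a 95% interval of −5.10 to 0.68 and an adjusted p of 0.994 by limma. Without arthritis 2 it was −0.97 and without arthritis 2 and triptolide 2 it was −0.47. Tendon and ligament markers were also highest on arthritis 2, with a sum of 247 there, 47.8 and 85.7 on arthritis 1 and 3, and 26.6 to 53.5 on the triptolide arrays. That sum came mainly from Fmod, at 7.17 on arthritis 2, and Thbs4, at 6.56. Tnmd and Kera were also highest there, Egr1 was lowest there, at 1.78, and Mkx was above background on no array. Fmod is also on the list of other cartilage matrix proteins. The part of tendon and ligament markers in the Chad values was not tested. That of the muscle RNA on arthritis 2 was not tested beyond a fit with the muscle markers as a covariate. That fit gave −2.17 (unadjusted p 0.0204, adjusted p 0.768 by limma).

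Cnmd encodes chondromodulin, a glycoprotein of cartilage that inhibits the growth of blood vessels. Its probe, on chromosome 15 (60891265 to 60891324, minus strand), read 0.26, −3.00 and 0.61 with arthritis and −2.14, 3.49 and −3.39 with triptolide, well above background on all 6 arrays. Triptolide 2 was the highest and triptolide 3 the lowest, 118-fold apart, so the treated arrays lay at both ends. The SD over the 6 arrays, 2.64, was at the 99.4th percentile of all tested probes.

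The log2 difference of Cnmd was 0.03 (SE 1.93), with a 95% interval of −4.64 to 4.69 and an adjusted p of 0.999 by limma. The interval is too wide to tell a large fall from a large rise. Without triptolide 2 the difference was −2.06, and without arthritis 2 it was −1.12. Without both it was −3.20, with an unadjusted p of 0.00182 and an adjusted p of 0.239 by limma, and in those 4 arrays its groups did not overlap, as for 45.1% of all tested probes there.

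Pmp2, Pllp, Cldn19 and Prx were among the 5 genes whose levels, centred on their mean over the 6 arrays, lay nearest to those of Cnmd. The measure is the root mean square difference between centred log2 levels over the 6 arrays, searched among 349 tested genes with at least 0.5 times the SD of Cnmd. It was 0.28 for Pmp2, which encodes a lipid-binding protein of peripheral myelin, and 0.81 to 0.96 for the other 3. Pmp2 read −0.48, −3.81 and −0.04 with arthritis and −2.66, 2.99 and −3.35 with triptolide, in the same order of arrays as Cnmd apart from the lowest pair, arthritis 2 and triptolide 3. Prx encodes periaxin, a protein of Schwann cells. Nerve and Schwann cell markers were highest on triptolide 2, where Cnmd was highest. Endothelial markers were highest there too, with a sum of 50.2 against at most 25.3 on the other arrays. So were Col2a1, Col9a1, Col9a2 and Ucma of the cartilage lists. Other genes of those lists went another way. Snorc, Prg4 and Vcan were lowest on triptolide 2, and Col11a1, Col11a2 and Fmod were highest on arthritis 2. The part of any of these in the Cnmd values was not tested.

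Sox9, the chondrocyte's leading transcription factor, is also made in other tissues. Its brighter probe, on chromosome 10 (102389406 to 102389465, plus strand), read −1.41, −0.34 and −1.57 with arthritis and −2.29, −0.37 and −2.29 with triptolide. Arthritis 2 and triptolide 2 were more than 1.0 log2 unit above the other arrays, 1 from each group, and triptolide 1 and 3 were the lowest. The log2 difference was −0.55 (SE 0.61), with a 95% interval of −2.03 to 0.94 and an adjusted p of 0.994 by limma. Without triptolide 2 it was −1.19, without arthritis 2 it was −0.16, and without both it was −0.80 with an unadjusted p of 0.00226 and an adjusted p of 0.260 by limma.

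The second Sox9 probe, at 102389659 to 102389718, read −4.85, −4.52 and −4.70 with arthritis and −6.37, −4.65 and −5.65 with triptolide. It was well above background on 2 arthritis arrays and no triptolide array, so it was not tested, and the background limit leaves no fold above 1. Limch1, at a root mean square difference of 0.07, and Map1b, at 0.14, were the genes nearest to Sox9 by the measure used for Cnmd, among 3149 candidates. Of the marker lists, the chondrocyte markers other than the 10 genes had the mean centred profile nearest to Sox9, at 0.44 over 5 genes, followed by smooth muscle and pericyte markers at 0.52 over 6 genes. By these means both lists were highest on triptolide 2. The 5 chondrocyte genes did not share 1 profile. Col2a1, Col9a1 and Ucma were highest on triptolide 2 and Col11a2 on arthritis 2, at 2.33, while Snorc was lowest on triptolide 2, at −1.90. The summed smooth muscle level was highest on arthritis 2, at 126, mainly through Des, at a level of 6.80 there, a gene of skeletal muscle too. The part of those cells was not tested.

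Sox5 encodes a partner of Sox9 that has no activation domain of its own. Its brighter probe read 1.61, −0.36 and 2.10 with arthritis and 1.63, 0.60 and 1.47 with triptolide. Arthritis 2 and triptolide 2 were the lowest arrays, the reverse of Sox9. The log2 difference was 0.12 (SE 0.67), with a 95% interval of −1.49 to 1.73 and an adjusted p of 0.995 by limma.

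The second Sox5 probe, printed above, read −3.72, −5.72 and −3.75 with arthritis and −3.91, −4.46 and −3.57 with triptolide, well above background on 2 of 3 arrays of each group. Arthritis 2 and triptolide 2 were the arrays not well above background. Its log2 difference was 0.42 (SE 0.58), with a 95% interval of −0.99 to 1.82 and an adjusted p of 0.994 by limma. Without arthritis 2 the values of both probes turned, to −0.62 and −0.25.

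Nearest to Sox5 among 3007 candidates were Cdr2l, at 0.20, and Cd3e, at 0.22. Cd3e encodes a CD3 subunit of the T cell receptor complex. Cd3e read −1.17, −2.70 and −0.95 with arthritis and −0.99, −2.15 and −1.10 with triptolide. T cell markers summed to 6.70 on arthritis 2 and 7.14 on triptolide 2, and to 16.1 to 18.6 on the other 4 arrays. Synovial fibroblast markers were lowest on the same 2 arrays, at 426 and 412, and so were macrophage markers, at 700 and 552. Not every fibroblast marker followed. Prg4 was lowest on these arrays, at 4.27 and 3.52, but Col1a1 on arthritis 2, at 7.36, was above every array except arthritis 1. The part of these cell types in the Sox5 values was not tested.

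**Figure D4:**
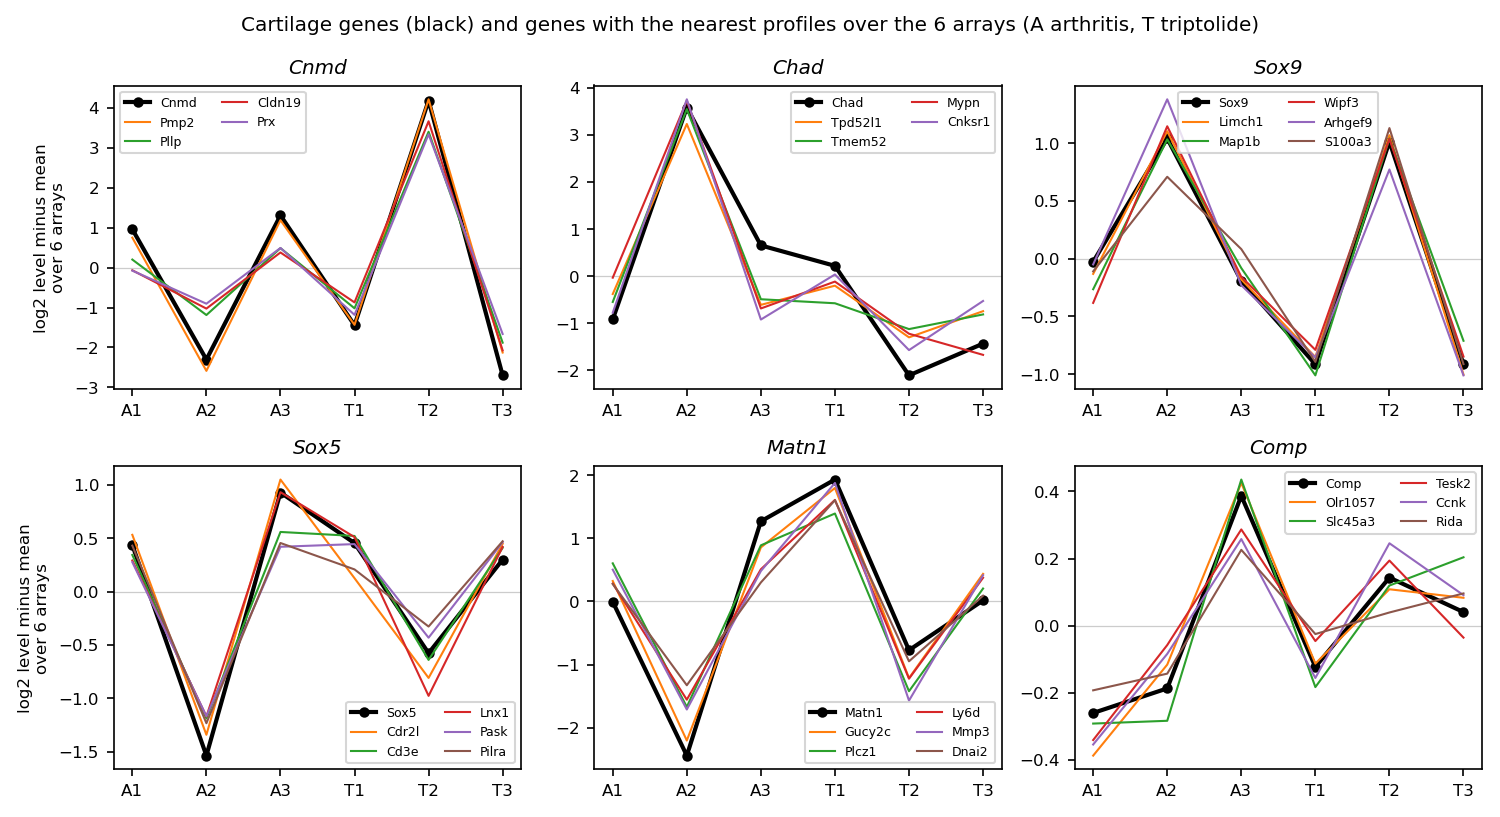
Log2 level minus its mean over the 6 arrays for 6 cartilage genes (black, with points) and for 4 or 5 of the genes nearest to each (coloured lines); A1 to A3 are arthritis arrays and T1 to T3 triptolide arrays, and the vertical scale differs between panels. Cnmd peaks on triptolide 2, Chad on arthritis 2, Sox9 on both, and Sox5 is lowest on arthritis 2 and low on triptolide 2.

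Among the remaining genes, Gucy2c, at a root mean square difference of 0.35, and Plcz1 lay nearest to Matn1, and the matrix protease gene Mmp3, at 0.61, was also among its 5. Mmp3 encodes stromelysin, and it read 2.57, 0.36 and 2.55 with arthritis and 3.94, 0.50 and 2.48 with triptolide, lowest on arthritis 2 and triptolide 2. Tpd52l1, at 0.74, and Tmem52, at 0.76, were among the 5 nearest to Chad and were highest on arthritis 2. For Comp the nearest was Olr1057, an olfactory receptor gene, at 0.07 among 11103 candidates, followed by Slc45a3, Tesk2, Ccnk and Rida at 0.09 to 0.10, and for Cilp it was Ptgfrn, a gene of a membrane protein that binds a prostaglandin receptor, at 0.04. For genes with as little spread as Comp and Cilp, many candidates lie close, and these names carry little weight.

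In the order of the 6 levels, neighbours were closer than the pooled SD within groups at each of the 5 steps for Comp, Cnmd and the brighter Sox5 probe. The gap was wider at 1 step for Chad and the brighter Cilp and Sox9 probes, and at 2 steps for the second Cilp probe. For Chad that step ran from arthritis 2 to arthritis 3, 2.93 against an SD of 1.82.

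Slide and treatment were largely confounded, since slide 1 held arthritis 1 to 3 with triptolide 1, and slide 2 held triptolide 2 and 3. With slide as a block, the same value as within slide 1, the log2 difference was −0.10 for Comp, −0.30 and −0.49 for the Cilp probes, −0.89 for Chad, −1.43 for Cnmd and −1.19 for Sox9. It was 2.32 for Matn1 and 0.51 and 0.49 for the Sox5 probes. Each of these rests on triptolide 1 alone for the treated side, and limma called none of them, with adjusted p values of 0.9999 with the block. Comp and Cnmd changed sign against the values over all arrays.

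The rest of the cartilage programme was read from 6 lists with 68 genes on the array, of which 54 were tested. None passed an adjusted p under 0.05 by limma, 24 were higher and 30 lower with triptolide, and 1 had an unadjusted p under 0.05. Of all 12168 tested genes, 245 were higher and 124 lower at that unadjusted threshold. Groups did not overlap for 3 of the 54 that were higher and 1 that was lower, against 574 and 459 of the 12168. The median log2 difference of the 54 was −0.04, beside 0.03 over all tested genes. Without arthritis 2 and triptolide 2, 14 of the 54 were higher, 10 had an unadjusted p under 0.05 and 1 was called, Col11a1, which fell by 2.14 with an adjusted p of 0.0488 by limma on those 4 arrays. In that setting limma called 24 of the 25777 probes.

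Of the cartilage collagens, the chains of fibrils in which aggrecan is held, 6 of 8 were tested, 2 higher and 4 lower, with a median of −0.13. Col2a1, the main chain of cartilage fibrils, read −3.98, −2.69 and −2.95 with arthritis and −2.32, −1.08 and −5.50 with triptolide, above background on 5 of 6 arrays. Triptolide held both its highest and its lowest array, and the log2 difference was 0.24 (SE 1.10, adjusted p 0.995 by limma). Col11a1, a chain of the thin fibril core, read −0.19, 1.22 and −0.04 with arthritis and −2.21, 0.53 and −2.30 with triptolide. Only triptolide 2 kept its groups from separating, and the difference was −1.66 (SE 0.83, adjusted p 0.994 by limma). Col11a2 had a difference of −1.34 (SE 1.13), set by arthritis 2 at 2.33 where the other 5 arrays lay between −2.20 and −1.36. Col10a1, the collagen of hypertrophic cartilage, was above background on no array.

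Other cartilage matrix proteins had 8 of 13 genes tested, 4 higher and 4 lower, with a median of −0.07. Ucma, a small protein of chondrocytes of the growth zone, read −1.14, −0.13 and 0.60 with arthritis and 0.74, 1.79 and 0.17 with triptolide, a difference of 1.13 (SE 0.57, adjusted p 0.994 by limma). Its groups overlapped through arthritis 3. Cytl1, a cytokine-like protein of cartilage, differed by 0.73 (SE 0.46), and its triptolide arrays were all above its arthritis arrays, at 0.05, 1.75 and 0.15 against −0.09, −0.15 and 0.00.

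Among chondrocyte transcription factors 6 of 8 on the array were tested, 4 higher and 2 lower, with a median of 0.06. Sox6, the other partner of Sox9, read −3.70, −2.56 and −3.78 with arthritis and −3.79, −2.38 and −3.84 with triptolide, highest on the same 2 arrays as Sox9. Runx3, a factor of maturing chondrocytes and of T cells, differed by 0.37 (SE 0.51), and Arid5a, a partner of Sox9 on cartilage genes, by 0.36 (SE 0.27). Both were highest on triptolide 1. Sox6 was named after its values were seen.

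Cartilage growth signals had 10 of 11 genes tested, 2 higher and 8 lower, with a median of −0.08. Frzb, a secreted Wnt antagonist of joint cartilage, read −2.56, −3.73 and −3.45 with arthritis and −2.45, −1.92 and −3.04 with triptolide, a difference of 0.78 (SE 0.40, adjusted p 0.994 by limma). Wif1, another Wnt inhibitor, differed by −0.28 (SE 0.16), and its triptolide arrays were all below its arthritis arrays. In chondroitin sulfate synthesis, which makes the sugar chains of aggrecan, 11 of 14 genes were tested, 6 higher and 5 lower, with a median of 0.12. The sulfate transporter gene Slc26a2 differed by 0.43 (SE 0.29) and Xylt1, whose enzyme starts the chains, by −0.32 (SE 0.22).

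Of the matrix proteases and their inhibitors 13 of 14 were tested, 6 higher and 7 lower, with a median of −0.10. Timp3, an inhibitor of aggrecanases held in the matrix, read 0.14, 0.02 and −0.00 with arthritis and 0.88, 0.87 and 0.37 with triptolide. Every triptolide array was above every arthritis array, and the difference was 0.65 (SE 0.19, unadjusted p 0.0126, adjusted p 0.994 by limma). Its unadjusted p stayed under 0.05 with each single array left out and did not without arthritis 2 and triptolide 2 together. Mmp9, a gelatinase, differed by 0.59 (SE 0.30), again with no overlap, since its lowest triptolide array, 0.71, was just above its highest arthritis array, 0.69.

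**Figure D5:**
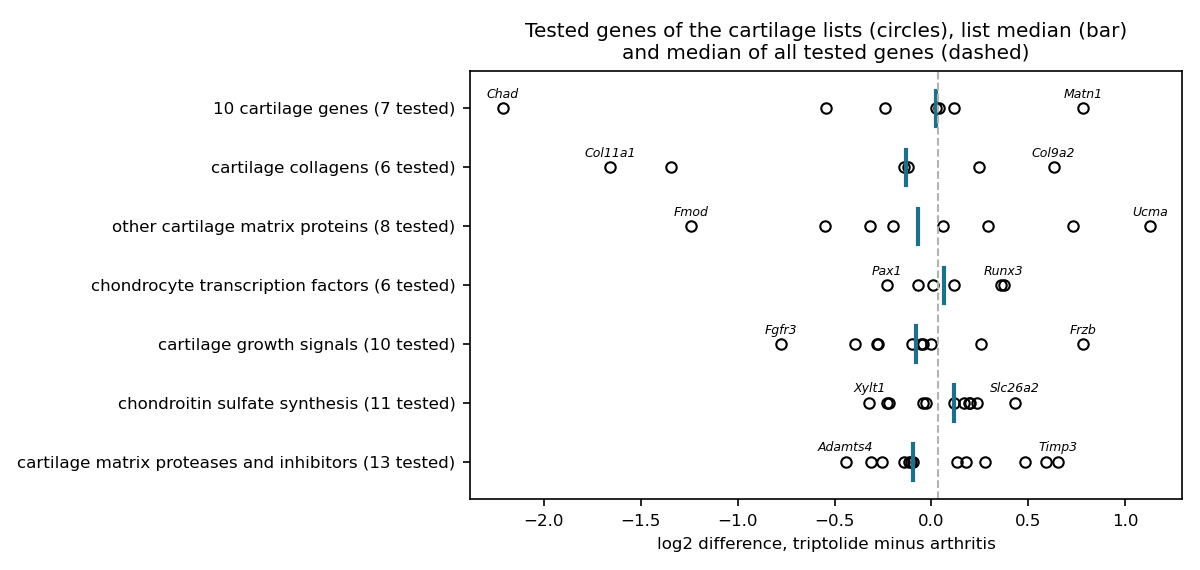
Log2 difference (triptolide minus arthritis) of each tested gene, 1 probe per gene, for the 10 cartilage genes and 6 cartilage lists; circles are genes, blue bars list medians, and the dashed line is the median of all tested genes, 0.03. The lowest and highest gene of each row is named; list medians lie between −0.13 and 0.12, and no gene passed an adjusted p under 0.05 by limma.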

How the data were processed

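Expression was measured on 1-colour Agilent rat arrays from 3 arthritis and 3 triptolide samples, labelled with Cy3. The authors deposited scanner files of spot intensity, background-subtracted within each array and not normalized between arrays, written by Agilent Feature Extraction 10.7.3.1 per the file headers (9.1 per the submitters' processing notes), with positions on build rn4. The authors' deposited table of log2 values has 167 rows and holds none of the 13 probes, so it gave no value.

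From these files, spots that are controls or carry an outlier flag were dropped, log2 intensity was taken, and each array's log2 75th percentile was subtracted. Each of the 13 probes has 1 spot. Probes well above background on at least 3 of 6 arrays were tested with limma 3.58.1 in R 4.3.3 (lmFit, eBayes, Benjamini-Hochberg over 25777 probes). The number of arrays, 3 per group, limits the precision. The fit was tested on simulated data. Of a gene's probes the one with the highest mean stands for it.

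The text names all 10 genes with every probe, the 2 tested genes per cartilage list with the smallest p, Col2a1, and the 5 genes nearest to Comp. The same search for the other tested genes was added after values were seen, and so were Sox6, Col10a1 and the Mmp3 and Cd3e values. Further genes of the marker and cartilage lists were named outside this rule, with their values known. They include Fmod, Thbs4, Tnmd, Kera, Egr1, Mkx, Des, Prg4, Col1a1, Snorc, Vcan, Col9a1 and Col9a2. Some items are not reported here. The genes and lists were chosen with earlier results of these data known. Marker lists not described above, or only in part, were osteoclast (Oscar above background on no array), endothelial, neutrophil (Elane and Ngp on none) and adipocyte markers. Their sums spanned 65.4 to 127, 20.0 to 50.2, 0.886 to 2.11 and 83.8 to 194 over the 6 arrays. Macrophage markers spanned 552 to 1138. Alternatives were quantile and median scaling, normexp, other filters, slide and replicate blocks, array weights, a muscle covariate and leaving out arrays.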

Additional observations from a re-analysis of the deposited data

How the results depend on the processing

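No alternative called any of the 9 probes at an adjusted p under 0.05. Cilp (both probes), Chad and Sox9 kept their direction under every alternative run. Of the single-gene values, 132 kept direction and 27 reversed, all in Comp, Matn1, Cnmd and Sox5. Changing the filter or blocking by replicate number cannot change a log2 difference, and slide 1 alone repeats the value with slide as a block. The 132 thus include values that could not reverse, and both counts include repeats. Cnmd was −0.0087 with the array median, −1.43 with slide as a block or slide 1 only, −3.22 with array weights, −0.036 with the muscle covariate and −3.20 without arthritis 2 and triptolide 2. Comp was −0.071 with normexp, −0.087 with normexp and quantile scaling, −0.10 with slide and −0.10 without both arrays. Matn1 was −0.042 with normexp and −0.15 with array weights; Sox5 was −0.26 with array weights and −0.30 without both arrays, and its second probe −0.042 with normexp and −0.0057 without both arrays. Leaving out 1 array in turn gave −0.080 to 0.24 for Comp, −0.24 to 1.61 for Matn1, −2.06 to 1.38 for Cnmd, −0.62 to 0.61 for Sox5 and −0.25 to 0.76 for its second probe. The cause was not tested.

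The median of the 7 genes, 0.026, was −0.30 with slide as a block or slide 1 only, −0.34 with array weights, −0.36 without both arrays and −0.34 (without arthritis 2) to 0.24 with 1 array left out. The count of the 9 probes at an unadjusted p under 0.05 follows, with the share of all tested probes in parentheses. It was 1 with the array median (3.1%), with normexp (3.66%) and with normexp and quantile scaling (4.86%). It was 2 with the muscle covariate (6.39%), 4 with array weights (16.9%) or without both arrays (11.2%). With 1 array left out it was 0 to 1 (2.4% to 6.43%). Probes whose groups do not overlap numbered 2 of 9 with the array median or normexp (8.27% and 9.63% of all probes there), 4 without both arrays (45.1%) and 1 to 3 with 1 array left out (15.9% to 28.0%); with arrays left out these counts are about the overall share. The count of the 54 list genes at that unadjusted threshold is given in the same way. It was 2 with normexp (3.66%), 3 with normexp and quantile scaling (4.86%) and 2 with slide as a block (3.77%). It was 13 with array weights (16.9%), 10 without both arrays (11.2%) and 2 to 5 with 1 array left out (2.4% to 6.43%). With no filter it was 3 of the 68 genes then tested (4.29%). Without both arrays 1 list gene passed the adjusted threshold and 14 were higher. With array weights 4345 of all probes had an unadjusted p under 0.05, with the muscle covariate 1648, without triptolide 2 1657 and without both arrays 2880, against 835.

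With the replicate number as a block, the list count was 4 and the count over all probes 1066; the block called none of the 9 probes. To check for pairs, each probe's group mean was subtracted and the remaining deviations of same-numbered arrays were correlated. The correlations were −0.165, −0.131 and 0.00083, so the numbers were not taken as pairs. They are not correlations of the levels themselves. The deposited log2 table gave no value. Probes under the background limit (Acan, Hapln1, Matn3) cannot show a difference here.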
